A study of Mus musculus with 12 samples.

Results

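Interferon-stimulated genes are the genes that cells switch on when they sense an interferon, and many of their products act against viruses. A list of 46 mouse genes of this kind was followed here, out of 50433 gene symbols in the table of renal tubular epithelial cells (TECs) and 50434 in that of neutrophils (PMN). Members were matched by symbol, and all 46 were found in both tables. Wildtype male C57BL/6J mice, 8 to 12 weeks old, underwent ischemia/reperfusion injury (IRI) of the kidney by clamping of the renal pedicles, and received glutamine or, as vehicle, physiologic saline by intravenous injection. The time of injection is given differently within the sources, so that it is uncertain for these libraries. Cells were collected 24 hours after IRI, TECs from kidney as CD45-negative and Prominin-1-positive cells and PMN from blood, with 3 libraries of each cell type per treatment. All mice had IRI, so that no library shows the uninjured level. Each library was read as a bulk sample, in which fewer cells of a type and less RNA per cell cannot be told apart. The submitters speak of single neutrophils and do not state how many cells a PMN library holds, so that the number of cells behind each PMN value is unknown. The labels do not say that each library came from its own mouse, so that p-values measure only the spread between these libraries.

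Type I interferons (alpha and beta) and type III interferons (lambda) bind receptors at the cell surface and activate the kinases JAK1 and TYK2. STAT2 and IRF9 then act in a complex that binds a DNA motif called the interferon-stimulated response element (ISRE). Interferon gamma acts through another motif, the gamma-activated site (GAS). In an epithelium the induced genes include sensors of viral RNA, enzymes that block viral replication, GTPases of cell-autonomous defence and chemokines that attract T cells.

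The TEC libraries held between 5397370 estimated counts, in glutamine replicate 2, and 10223461, in vehicle replicate 4. The next lowest was glutamine replicate 1 with 8674085. The PMN libraries held more, from 20225246 to 21878446. The TEC libraries resembled each other closely, with pairwise correlations of log2 CPM (counts scaled to library size) between 0.900 and 0.948 across genes, which are not independent replicates. For PMN the correlations lay between 0.561 and 0.636. All 9 proximal tubule markers were detected in every TEC library, from the glucose transporter Slc5a2 (1.16 to 14.1 CPM) and the sort marker Prom1 (64.6 to 83.5 CPM) to the phosphate transporter Slc34a1 (1298 to 2711 CPM). Slc5a2 (log2 fold change 2.06, SE 0.66, unadjusted p = 0.00984 by edgeR) and the anion transporter Slc22a6 (0.60, SE 0.20, unadjusted p = 0.0107) were higher in all glutamine libraries than in all vehicle libraries, and Slc5a2 was highest in glutamine replicate 2. Of the 9 markers, 7 were higher and 2 lower with glutamine, with a median log2 fold change of 0.19. Aqp1, on the same list, was lower with overlapping groups (-0.73, SE 0.35, unadjusted p = 0.0603 by edgeR). Endothelial markers were also present, with Pecam1 between 68.6 and 115 CPM and Cdh5 between 42.3 and 122 CPM. The injury marker Havcr1 was lower with glutamine, at 793, 541 and 106 CPM in vehicle replicates 3, 4 and 5 and at 94.1, 49.4 and 26.2 CPM in glutamine replicates 1, 2 and 3 (adjusted p = 0.254 by edgeR, 0.0369 by DESeq2). In the PMN libraries the neutrophil gene S100a8 lay between 6607 and 28925 CPM, but the antigen presentation gene Cd74 also lay between 4155 and 10743 CPM and the complement gene C1qa between 287 and 2572 CPM, so that markers of macrophages and dendritic cells were present in every PMN library.

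Interferon-stimulated genes were mostly higher with glutamine than with vehicle in TECs, but no single gene passed edgeR's test over all genes. Of the 46 members, 43 passed the expression filter, and Oas2, Oas3 and Mx1 did not. Of these 43 genes, 39 were higher and 4 lower with glutamine. Their median log2 fold change was 0.72, with a range from -0.84 to 2.47. Over all 14734 genes tested, 50.6% were higher and the median was 0.01. In edgeR's quasi-likelihood test 0 members had an adjusted p-value below 0.05 (background 0% of all genes), and the smallest adjusted p-value of a member was 0.207 with Benjamini-Hochberg adjustment. An unadjusted p-value below 0.05 was found for 12 members, all higher with glutamine, against 7.32% of all genes in that direction and 5.58% lower. They were Irf7, Stat2, Ifit1, Ifit3, Ifit3b, Oasl1, Rsad2, Cmpk2, Rtp4, Isg15, Gbp3 and Cxcl10, 27.9% of the members tested. DESeq2's Wald test, the tool named by the submitters, called 3 members at an adjusted p-value below 0.05, Oasl1 (0.0215), Cmpk2 (0.0302) and Ifit3 (0.0384), beside 1.93% of all genes with an adjusted p-value.

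The count of 12 depended on the library. It was 6 of 43 without glutamine replicate 2 (5.24% of all genes higher in that fit), where 1 member, Ifi27, was lower at that level (3.38% of all genes). It was 7 of 43 without glutamine replicate 3 (7.62% of all genes), 8 of 45 without vehicle replicate 4 (5.29%) and 15 of 45 without glutamine replicate 1 (5.39%). In each of the 6 fits that left out 1 library, Stat2, Ifit3, Oasl1 and Cmpk2 kept an unadjusted p-value below 0.05, 27 members were higher in all 6 fits, and Bst2 and Ifi27 were lower in all 6. The other 14 members tested changed direction in at least 1 of these fits. These fits share most of their libraries. The share of all genes that kept a p-value or a direction in all 6 was not computed, so that these counts have no background. Of the 12 members, the remaining 8 had an unadjusted p-value above 0.05 in 2 to 4 of the fits. With limma-voom 9 of 43 members were higher at an unadjusted p-value below 0.05, against 7.78% of all genes. Of the 12 members, 8 stayed below 0.05 by limma-voom, and Irf7 (0.0543), Cmpk2 (0.0575), Ifit3b (0.0608) and Rtp4 (0.0721) did not.

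**Figure D1:**
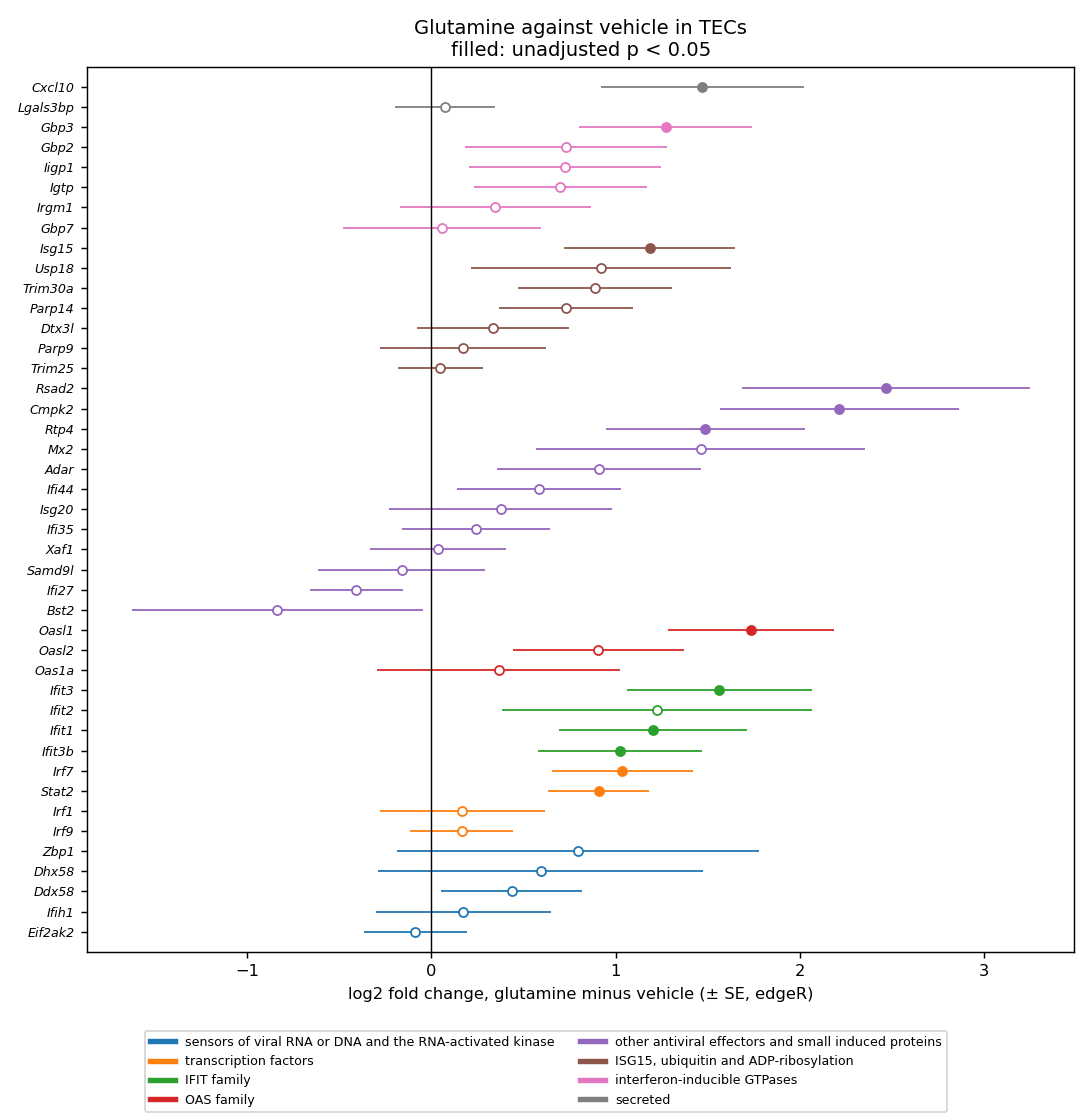
Log2 fold change, glutamine minus vehicle, of the 43 interferon-stimulated genes tested in TECs, with the standard error from edgeR, grouped and coloured by role. Filled points mark the 12 genes with an unadjusted p-value below 0.05, and all 12 lie above 0.

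Glutamine libraries differed among themselves more than the group means show. Glutamine replicate 2 held the highest level of 19 of the 43 members and glutamine replicate 3 that of 14, whereas glutamine replicate 1 held that of 2. Over all genes tested these libraries held the highest level of 18.2%, 16.8% and 15.4%. Glutamine replicate 2 also had the fewest counts of the TEC libraries (5397370), and the part of depth was not tested. Relative to each gene's mean over the 6 libraries, the median log2 deviation of the members was -0.26, 0.59 and 0.48 in glutamine replicates 1, 2 and 3, and -0.18, -0.30 and -0.34 in vehicle replicates 3, 4 and 5. Of the 43 members, 30 lay above every vehicle library in glutamine replicate 2 (69.8%, against 29.3% of all genes), 28 in glutamine replicate 3 (65.1%, against 28.1%) and 9 in glutamine replicate 1 (20.9%, against 28.2%). For most members, glutamine replicate 1 therefore lay at the level of the vehicle libraries. Of the 43 members, 7 had glutamine libraries that all lay above all vehicle libraries (Irf7, Stat2, Oasl1, Trim30a, Parp14, Gbp3 and Cxcl10), 16.3% of the members tested against 9.01% of all genes in that direction, and 0 had the reverse, against 9.81%.

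Levels of markers of other cells were compared with the members library by library. Leukocyte markers (Ptprc, Coro1a, Laptm5, Tyrobp, Fcer1g and Cd52) summed to 32.9, 13.5 and 16.9 CPM in vehicle replicates 3, 4 and 5, and to 37.2, 73.5 and 19.7 CPM in glutamine replicates 1, 2 and 3. All 6 had a positive log2 fold change, 1 of them (Laptm5) with an unadjusted p-value below 0.05, and Coro1a was at 0 in vehicle replicate 5. Ptprc itself, which encodes the sort marker CD45, had 1.48, 1.52 and 0.102 CPM with vehicle and 2.28, 1.81 and 2.74 CPM with glutamine, low levels whose groups did not overlap (log2 fold change 1.13, SE 0.90, unadjusted p = 0.234 by edgeR). The 10 macrophage and dendritic cell markers summed to between 45.2 and 91.2 CPM with vehicle and between 68.7 and 146 CPM with glutamine, with Adgre1 at 0 in 3 libraries. Of these markers 9 were tested and 7 were higher, and Lyz2, with 2.56, 1.61 and 1.12 CPM with vehicle and 4.44, 12.5 and 3.95 CPM with glutamine, did not overlap between the groups (log2 fold change 1.95, SE 0.61, unadjusted p = 0.00874 by edgeR). All 3 monocyte markers tested were higher, with a median of 1.47 on the log2 scale, and the 5 on that list summed to 16.4, 20.7 and 19.0 CPM with vehicle and 28.0, 43.0 and 14.1 CPM with glutamine. Most of each sum was Cx3cr1 (log2 fold change 0.37, SE 0.35), with 12.9, 18.6 and 17.7 CPM with vehicle and 24.0, 28.3 and 11.5 CPM with glutamine. The 10 neutrophil markers summed to 243, 109 and 102 CPM with vehicle and 141, 254 and 119 CPM with glutamine, with 5 of the 6 tested higher and a median of 0.59. Cxcr2 had 80.9, 59.7 and 88.0 CPM with vehicle and 37.8, 48.6 and 85.2 CPM with glutamine (log2 fold change -0.41, SE 0.30). This lower marker made up most of the sum in vehicle replicates 4 and 5 and in glutamine replicate 3. The 5 plasmacytoid dendritic cell markers, which include the member Bst2, summed to between 52.1 and 68.3 CPM in all libraries. Tcf4 alone made up most of each sum, with 57.5, 57.7 and 44.0 CPM with vehicle and 55.9, 50.6 and 56.0 CPM with glutamine. Siglech lay between 3.65 and 9.01 CPM, and Bst2, Ccr9 and Spib reached at most 3.06 CPM, so that the sum says little about these cells. Endothelial markers summed to between 260 and 377 CPM with vehicle and between 229 and 337 CPM with glutamine. The 6 erythroid and platelet markers summed to between 806 and 4404 CPM with vehicle and between 975 and 6727 CPM with glutamine. Glutamine replicate 2 was thus highest in members and in leukocyte, monocyte, neutrophil, macrophage and dendritic cell, and erythroid and platelet markers. It was also highest in the sums of lymphocyte (26.1 CPM) and stromal markers (27.3 CPM). In those of proximal tubule, endothelial and plasmacytoid dendritic cell markers it was not the highest. In glutamine replicate 3 the summed level of the 46 members was 1018 CPM, close to the 1136 CPM of glutamine replicate 2, while the sum of its leukocyte markers lay within the range of the vehicle libraries and its Ptprc above it. In glutamine replicate 1 the sum of the leukocyte markers lay above every vehicle library, as did 4 of the 6 markers, and the members summed to 573 CPM, within the 515 to 606 CPM of the vehicle libraries. Without glutamine replicate 2, 32 members were higher and 11 lower and their median was 0.43 on the log2 scale, and without glutamine replicate 3, 35 were higher and 8 lower, with a median of 0.65. The part of the markers in the members' levels was not tested beyond these values.

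**Figure D2:**
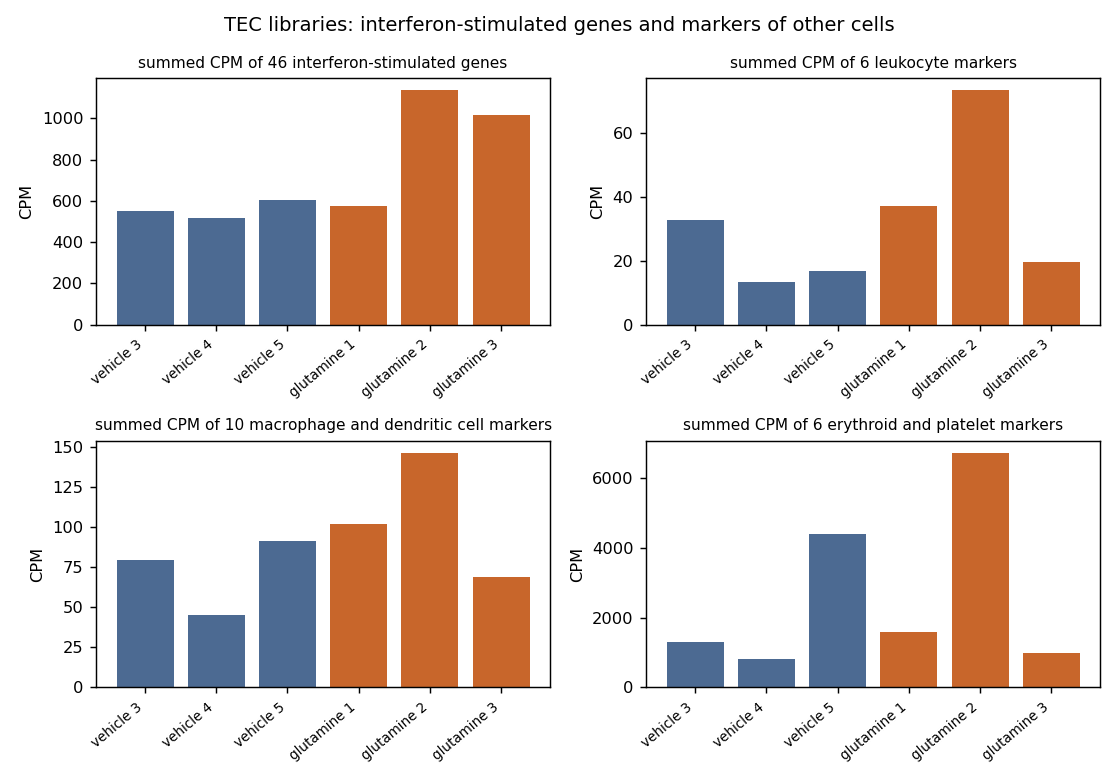
Summed CPM in each TEC library of the 46 interferon-stimulated genes and of 3 lists of markers of other cells, with vehicle libraries in blue and glutamine libraries in orange. The members are highest in glutamine replicates 2 and 3 (1136 and 1018 CPM), while the leukocyte markers are highest in glutamine replicate 2 (73.5 CPM) and lie at 19.7 CPM in glutamine replicate 3.

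Among the antiviral effectors, Rsad2 had the largest log2 fold change of the 43 members tested. It encodes viperin, an enzyme that makes a chain-terminating nucleotide against viral RNA synthesis, and lies at chr12:26442746-26456452 on the minus strand of GRCm38. Rsad2 was at 22.9, 22.2 and 59.8 CPM in vehicle replicates 3, 4 and 5, and at 39.2, 277 and 264 CPM in glutamine replicates 1, 2 and 3. The first glutamine library thus lay inside the vehicle range and the other two far above it. The vehicle mean was 35.0 ± 21.5 CPM and the glutamine mean 193 ± 134 CPM (SD, n = 3). Its log2 fold change was 2.47 (SE 0.78, adjusted p = 0.289 by edgeR's quasi-likelihood test), and its unadjusted p-value was above 0.05 without glutamine replicate 3, vehicle replicate 3 or vehicle replicate 4. Cmpk2, a mitochondrial nucleotide kinase, is the neighbour of Rsad2 on chromosome 12 (chr12:26469204-26479837), transcribed in the opposite direction with 12752 bases between the starts. It had 4.93, 2.15 and 3.06 CPM with vehicle and 3.003, 20.1 and 24.1 CPM with glutamine. As for Rsad2, glutamine replicates 2 and 3 lay far above the other 4 libraries. Its log2 fold change was 2.21 (SE 0.65, adjusted p = 0.233 by edgeR) and lay between 1.75 and 2.71 in the fits without 1 library. Rtp4, a chaperone of membrane receptors, had 3.06, 4.66 and 2.85 CPM with vehicle and 3.36, 14.1 and 12.5 CPM with glutamine, a log2 fold change of 1.49 (SE 0.54, adjusted p = 0.295 by edgeR). Again glutamine replicate 1 lay among the vehicle libraries.

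Of the 12 effectors and small induced proteins tested, 9 were higher and 3 lower, with a median of 0.48, and 3 of them (Rsad2, Cmpk2 and Rtp4) had an unadjusted p-value below 0.05 and were higher (7.32% of all genes). The 3 lower genes were Bst2 (-0.84), Ifi27 (-0.41) and Samd9l (-0.16). Bst2, or tetherin, which holds budding virions at the cell surface, was low in all libraries, between 0.601 and 3.06 CPM. Ifi27 is a small mitochondrial protein strongly induced by interferon in other settings, and it had 61.4, 52.0 and 65.4 CPM with vehicle and 34.8, 61.3 and 39.1 CPM with glutamine. These groups overlapped through glutamine replicate 2 (edgeR adjusted p = 0.519). Mx1, a GTPase that is truncated in C57BL/6 mice, did not pass the filter, with 2, 2 and 2 counts with vehicle and 1, 13 and 17 counts with glutamine. Its relative Mx2, annotated as a polymorphic pseudogene in GENCODE M21, had between 0.448 and 0.986 CPM with vehicle and 0.601, 2.01 and 3.62 CPM with glutamine.

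**Figure D3:**
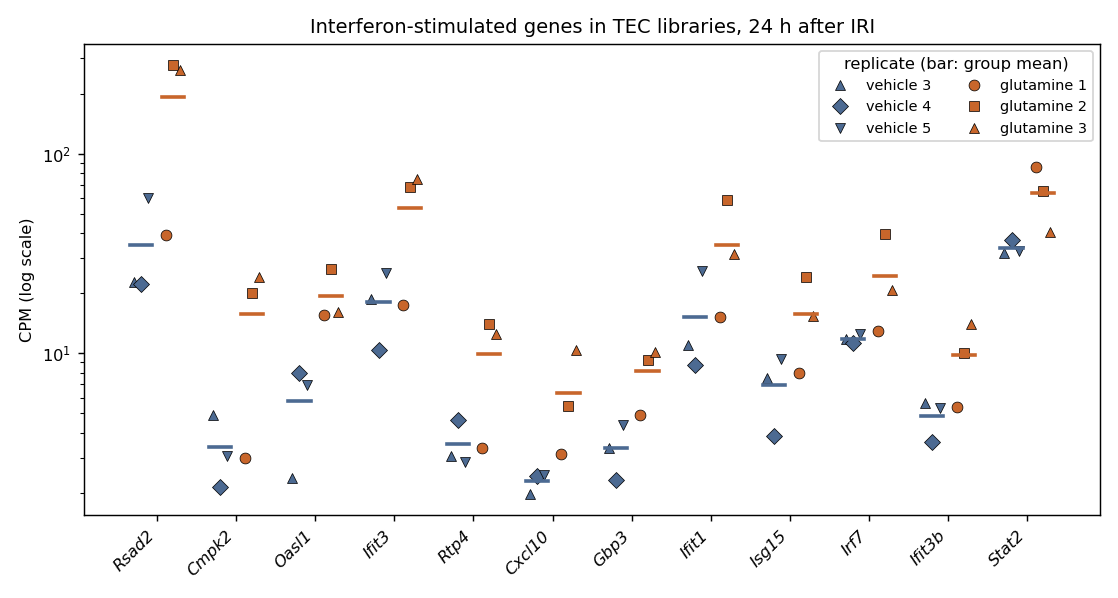
CPM on a log scale of the 12 members with an unadjusted p-value below 0.05 in TECs, with 1 symbol per library and bars at the group means, ordered by log2 fold change. For Rsad2, Cmpk2, Ifit3, Ifit1, Rtp4, Isg15 and Ifit3b the circle of glutamine replicate 1 lies among the vehicle libraries, and for Stat2 it is the highest point.

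All 4 genes of the IFIT family, whose proteins bind viral RNA, were higher with glutamine in TECs, and 3 of them had an unadjusted p-value below 0.05 (7.32% of all genes in that direction). Ifit3 (chr19:34583531-34588731, plus strand) had 18.6, 10.4 and 25.2 CPM with vehicle and 17.5, 67.7 and 74.9 CPM with glutamine. Its log2 fold change was 1.56 (SE 0.50, adjusted p = 0.254 by edgeR) and stayed between 1.23 and 1.98 without any 1 library. Ifit1 had 10.9, 8.69 and 25.8 CPM with vehicle and 15.3, 58.5 and 31.4 CPM with glutamine, a log2 fold change of 1.20 (SE 0.51, adjusted p = 0.362 by edgeR). This was 0.62 without glutamine replicate 2 and 1.82 without vehicle replicate 5. Vehicle replicate 5 lay above glutamine replicate 1 for both genes. Ifit3b, a near copy of Ifit3 whose reads of 50 bases can be shared with it, had 5.62, 3.58 and 5.30 CPM with vehicle and 5.41, 10.04 and 14.04 CPM with glutamine, and the split between these 2 genes is uncertain. Ifit2 was low, between 0.480 and 4.93 CPM, with a log2 fold change of 1.23 (SE 0.84, unadjusted p = 0.173 by edgeR).

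The OAS enzymes sense viral RNA and make oligoadenylates that activate RNase L. Oasl1 (chr5:114923240-114937915), a relative without that activity that holds back translation of Irf7 mRNA, had the smallest p-value of the 43 members tested in TECs. It was at 2.37, 7.97 and 6.93 CPM with vehicle and 15.5, 26.3 and 16.1 CPM with glutamine, so that all glutamine libraries lay above all vehicle libraries. Its log2 fold change was 1.74 (SE 0.45, unadjusted p = 0.00257, adjusted p = 0.207 by edgeR) and lay between 1.36 and 2.04 without any 1 library. Oasl2 had a log2 fold change of 0.91 (SE 0.46) and Oas1a one of 0.36 (SE 0.66), both with overlapping groups. Oas2 and Oas3 did not pass the filter: Oas3 had 0, 1 and 0 counts with vehicle and 2, 8 and 15 with glutamine, and Oas2 had 3, 2 and 1 counts with vehicle and 6, 2 and 9 with glutamine.

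Of the 4 transcription factors of the response, all were higher with glutamine and 2, Stat2 and Irf7, had an unadjusted p-value below 0.05 (7.32% of all genes in that direction). Stat2 (chr10:128270559-128292849), the subunit that gives the ISRE-binding complex its activation domain, had 32.0, 37.0 and 32.5 CPM with vehicle and 85.5, 64.7 and 40.4 CPM with glutamine. Here glutamine replicate 1 was the highest library, in contrast to the order seen for Rsad2 and Ifit3. The log2 fold change of Stat2 was 0.91 (SE 0.28, unadjusted p = 0.00697, adjusted p = 0.235 by edgeR). Irf7, the factor that amplifies type I interferon production, had 11.8, 11.2 and 12.5 CPM with vehicle and 12.97, 39.8 and 20.7 CPM with glutamine, a log2 fold change of 1.04 (SE 0.38, adjusted p = 0.305 by edgeR). All glutamine libraries lay above all vehicle libraries, glutamine replicate 1 by a narrow margin, and the log2 fold change was 0.51 without glutamine replicate 2. Irf9, the DNA-binding partner of STAT2, and Irf1, a factor shared with interferon gamma, differed by 0.16 and 0.17 with standard errors of 0.28 and 0.45.

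ISG15 is a ubiquitin-like protein that is attached to other proteins, and USP18 removes it. Isg15 (chr4:156199424-156200818) had 7.497, 3.85 and 9.37 CPM with vehicle and 7.93, 24.1 and 15.4 CPM with glutamine, a log2 fold change of 1.18 (SE 0.46, adjusted p = 0.331 by edgeR), and glutamine replicate 1 lay inside the vehicle range. Usp18 was at 1.48, 1.25 and 1.94 CPM with vehicle and 1.92, 5.22 and 1.86 CPM with glutamine, with 1 high library. All 7 genes of this role were higher with glutamine, with a median of 0.73. The ubiquitin ligase Trim25, which ubiquitinates the sensor RIG-I, differed by less than its standard error, from a vehicle mean of 86.3 ± 23.1 CPM to a glutamine mean of 89.1 ± 9.62 CPM (SD, n = 3, log2 fold change 0.05, SE 0.23). Trim30a and the ADP-ribosyltransferase Parp14 did not overlap between the groups, with log2 fold changes of 0.89 (SE 0.42) and 0.73 (SE 0.36) and unadjusted p-values of 0.0573 and 0.0699 by edgeR. The neighbours Dtx3l and Parp9, whose proteins form a complex and whose starts lie 681 bases apart on chromosome 16, had log2 fold changes of 0.33 (SE 0.41) and 0.17 (SE 0.45).

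Interferon-inducible GTPases, which attack the vacuoles of intracellular pathogens and respond strongly to interferon gamma, were higher in 6 of 6 cases with a median of 0.71. Gbp3 (chr3:142560026-142573209) had 3.35, 2.33 and 4.38 CPM with vehicle and 4.92, 9.24 and 10.2 CPM with glutamine, a log2 fold change of 1.27 (SE 0.47, adjusted p = 0.302 by edgeR) with groups that did not overlap. Iigp1, the GTPase with the highest mean CPM of this role, had 6.02, 6.45 and 1.63 CPM with vehicle and 6.01, 8.84 and 8.55 CPM with glutamine, and its groups overlapped (log2 fold change 0.72, SE 0.52). Gbp2 (0.73, SE 0.55), Igtp (0.70, SE 0.47), Irgm1 (0.35, SE 0.52) and Gbp7 (0.06, SE 0.54) also had overlapping groups.

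Of the secreted products, the T cell chemokine Cxcl10 (chr5:92346638-92348889) had 1.97, 2.42 and 2.45 CPM with vehicle and 3.12, 5.42 and 10.4 CPM with glutamine. The groups did not overlap, and its log2 fold change was 1.47 (SE 0.55, adjusted p = 0.313 by edgeR). Lgals3bp, a secreted glycoprotein that binds galectin, had a vehicle mean of 74.9 ± 6.67 CPM and a glutamine mean of 78.9 ± 29.0 CPM (SD, n = 3). Its log2 fold change was 0.07 (SE 0.27). The 5 sensors of viral nucleic acid had overlapping groups. Ddx58, which encodes RIG-I, had a log2 fold change of 0.44 (SE 0.38), Ifih1, which encodes MDA5, one of 0.17 (SE 0.47), and Eif2ak2, the RNA-activated kinase PKR, one of -0.09 (SE 0.28), while Zbp1 (0.80, SE 0.98) and Dhx58 (0.59, SE 0.88) were low, with at most 2.30 CPM in a library. None of these 5 sensors had an unadjusted p-value below 0.05 in edgeR's test, against 12.9% of all genes.

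Levels between genes were compared as CPM per kilobase of the longest coding transcript. With vehicle, Ifi27 was the highest member in TECs at 61.0 ± 7.07 CPM per kilobase, followed by Lgals3bp at 32.1 ± 2.86, Trim25 at 15.4 ± 4.14, Ifit3 at 10.4 ± 4.24 and Rsad2 at 9.25 ± 5.69 (SD, n = 3). Trim25, Ifit3 and Rsad2 did not differ beyond the spread between libraries, while Ifi27 and Lgals3bp did. With glutamine Rsad2 came first at 51.1 ± 35.3 CPM per kilobase and Ifi27 second at 46.1 ± 14.5, and these levels overlapped widely. By group means Cmpk2 (1.06 ± 0.44 with vehicle and 4.92 ± 3.50 with glutamine) went from rank 34 of 46 to rank 18. Bst2 (2.66 ± 1.30 and 1.49 ± 0.64) went from rank 17 to rank 35. The groups overlapped for both genes, and Bst2 had only 5 to 31 counts in a library.

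Promoters were examined because most of the 12 members above are textbook targets of the same complex. RefSeq promoter windows on GRCm38.p6, from 250 bases before to 50 bases after a gene's start, were matched by symbol for 35 of the 46 members, and an ISRE was searched on both strands as GAAA, any 2 bases and GAAA. It was found in 19 of the 35 members (54.3%), against 3.99% of 27025 genes, and in 8 of the 11 matched members with an unadjusted p-value below 0.05. A GAS, searched as TTC, any 3 bases and GAA, which reads the same on both strands, was found in 10 of the 35 members (28.6%) against 9.55% of genes. The stretches that hold the ISRE are shown for these 8 genes, 5′ to 3′ on the gene's strand and wholly before the start, with every base of a match in capitals. The whole 250 bases before the start are given for Rsad2, where a single match lies 120 bases before the start.
Rsad2, chr12:26456453-26456702, minus strand: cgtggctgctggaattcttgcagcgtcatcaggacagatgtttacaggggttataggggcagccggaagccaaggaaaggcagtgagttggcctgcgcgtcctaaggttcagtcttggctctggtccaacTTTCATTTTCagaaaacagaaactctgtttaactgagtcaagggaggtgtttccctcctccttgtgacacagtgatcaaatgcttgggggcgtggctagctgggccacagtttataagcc
Ifit3, chr19:34583353-34583436, plus strand: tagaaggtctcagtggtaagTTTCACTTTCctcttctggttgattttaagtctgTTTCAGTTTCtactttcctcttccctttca
Ifit3b, chr19:34607749-34607832, plus strand: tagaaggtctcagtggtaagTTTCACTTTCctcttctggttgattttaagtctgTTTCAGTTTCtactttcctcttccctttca
Ifit1, chr19:34640765-34640833, plus strand: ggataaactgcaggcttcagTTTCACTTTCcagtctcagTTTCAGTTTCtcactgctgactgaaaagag
Isg15, chr4:156200855-156200916, minus strand: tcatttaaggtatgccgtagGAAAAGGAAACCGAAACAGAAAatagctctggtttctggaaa
Gbp3, chr3:142559979-142560034, plus strand: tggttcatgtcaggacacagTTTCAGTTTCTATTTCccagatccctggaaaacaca
Cxcl10, chr5:92349073-92349122, minus strand: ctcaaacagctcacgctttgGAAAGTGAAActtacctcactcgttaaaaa
Stat2, chr10:128270256-128270305, plus strand: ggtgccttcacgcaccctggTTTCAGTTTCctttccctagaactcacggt

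The stretches of Ifit3 and Ifit3b are the same in all 84 bases, with 2 matches each. Isg15 holds 3 overlapping matches and Gbp3 holds 2. The window of Cmpk2, the neighbour of Rsad2, holds none, and its 150 bases before the start are given for comparison.
Cmpk2, chr12:26469065-26469214, plus strand: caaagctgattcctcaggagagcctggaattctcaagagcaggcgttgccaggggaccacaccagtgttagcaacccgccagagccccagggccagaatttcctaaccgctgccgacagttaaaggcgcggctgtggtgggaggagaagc

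The windows of Irf7 and Oasl1 likewise hold no such letters, and Rtp4 was not matched. In TECs the 18 tested members with an ISRE had a median log2 fold change of 0.81, with 16 higher and 8 at an unadjusted p-value below 0.05. The 16 without an ISRE had a median of 0.35, with 15 higher and 3 at that level. Over all genes 50.6% were higher, and 7.32% were higher at that level. The ranges of these groups, from -0.84 to 2.47 and from -0.16 to 2.21, overlapped almost wholly, and their difference was not tested. A match is a string of letters and not a measured binding site.

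**Figure D4:**
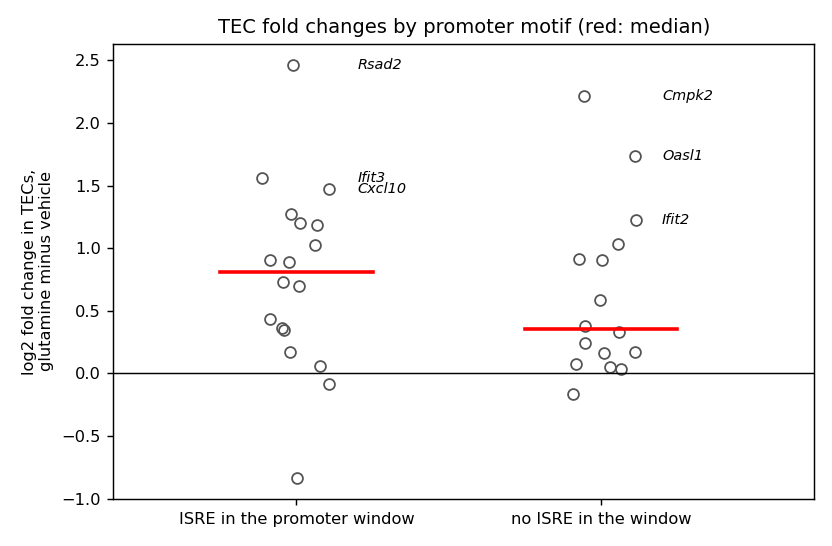
Log2 fold change in TECs, glutamine minus vehicle, of members whose RefSeq promoter window holds an ISRE and of those whose window holds none, with the median in red and the 3 highest genes of each group named. The medians are 0.81 and 0.35, and the ranges of the groups overlap.

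Interferon ligands, receptors and signalling genes, with feedback inhibitors and upstream adaptors, were examined as a separate list, and no test compared it with the members. Of 21 interferon ligands, 0 passed the expression filter: Ifnb1 had 5 counts in vehicle replicate 3, Ifnz had 6 counts in glutamine replicate 2, and all other TEC counts of ligands were 0. Of 49 pathway genes 26 were tested, 7 of them higher and 19 lower, against 50.6% higher over all genes. Their median was -0.21 on the log2 scale. In edgeR's test 0 of them had an unadjusted p-value below 0.05, against 12.9% of all genes. Among the 6 receptor genes, Ifnar1, a chain of the type I receptor, had a log2 fold change of 0.12 (SE 0.37) and its partner Ifnar2 one of -0.11 (SE 0.30). The receptor chains Ifngr1 and Ifngr2 of interferon gamma had log2 fold changes of -0.41 (SE 0.32) and -0.57 (SE 0.32), and Ifnlr1 and Il10rb of the type III receptor had -0.45 (SE 0.999) and -0.55 (SE 0.35).

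In PMN the interferon-stimulated genes were divided in direction, and the balance depended on the tool. Of the 46 members 33 passed the filter, 19 higher and 14 lower with glutamine. Their median log2 fold change was 0.24, with a range from -5.44 to 4.0, beside a median of 0.0002 over all 10130 genes. With limma-voom 22 were higher and 11 lower, with a median of 0.83. In edgeR's test 0 members had an adjusted p-value below 0.05 (background 0%) and 0 an unadjusted p-value below 0.05, against 3.33% of all genes (2.04% higher and 1.28% lower). DESeq2 called 0 members, against 2.80% of all genes with an adjusted p-value, and had 1 higher and 3 lower of 35 members at an unadjusted p-value below 0.05, against 4.03% and 3.84% of all genes. Groups that did not overlap were seen for 4 members, Dhx58, Irf1 and Irf9 (higher) and Rtp4 (lower), 12.1% of the members tested against 10.5% of all genes (5.87% higher and 4.63% lower). Without vehicle replicate 1 the balance was 18 higher and 19 lower with a median of -0.24. Of these 37 members, Cxcl10 (higher, against 2.26% of all genes) and Cmpk2, Ddx58 and Rtp4 (lower, against 2.18%) had unadjusted p-values below 0.05. Without vehicle replicate 3 only Ifit1 of 36 members did (lower, against 1.98%). Without glutamine replicate 3, 17 members were higher and 19 lower.

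Zeros and peaks in 1 library were common among all genes in PMN, and the members shared in this. Of the 33 tested members, 14 had 0 counts in at least 1 library (42.4%, against 33.9% of all genes), and of the 46 members between 5 and 17 were at 0 in a single library. In 8 of the 33 members 1 library held over 50% of the summed CPM (24.2%, against 24.3% of all genes), while in TECs this was so for 0 of 43 members (0.828% of all genes). None of the 43 tested members had a TEC library at 0, against 3.71% of all genes. Ifit3 was at 74.2 CPM in vehicle replicate 2, from 1628 counts, and at 0 in the other 5 libraries. Ifit1 was at 66.3 CPM in vehicle replicate 2 and below 1 CPM elsewhere. Ifit2 reached 51.3 CPM and Oasl1 24.7 CPM in glutamine replicate 3, with at most 4 counts elsewhere. Vehicle replicate 2 also held 1547 CPM of 6 endothelial markers, which summed to between 2.66 and 90.9 CPM in the other PMN libraries, among them Kdr at 619 CPM and at 0 in each other library. Their part in the levels of Ifit1 and Ifit3 was not tested. Without vehicle replicate 2, 22 members were higher and 14 lower with a median of 0.40, beside 0.083 over all genes. In that fit 0 members had an unadjusted p-value below 0.05 in edgeR's test, against 2.83% of all genes higher and 1.46% lower.

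**Figure D5:**
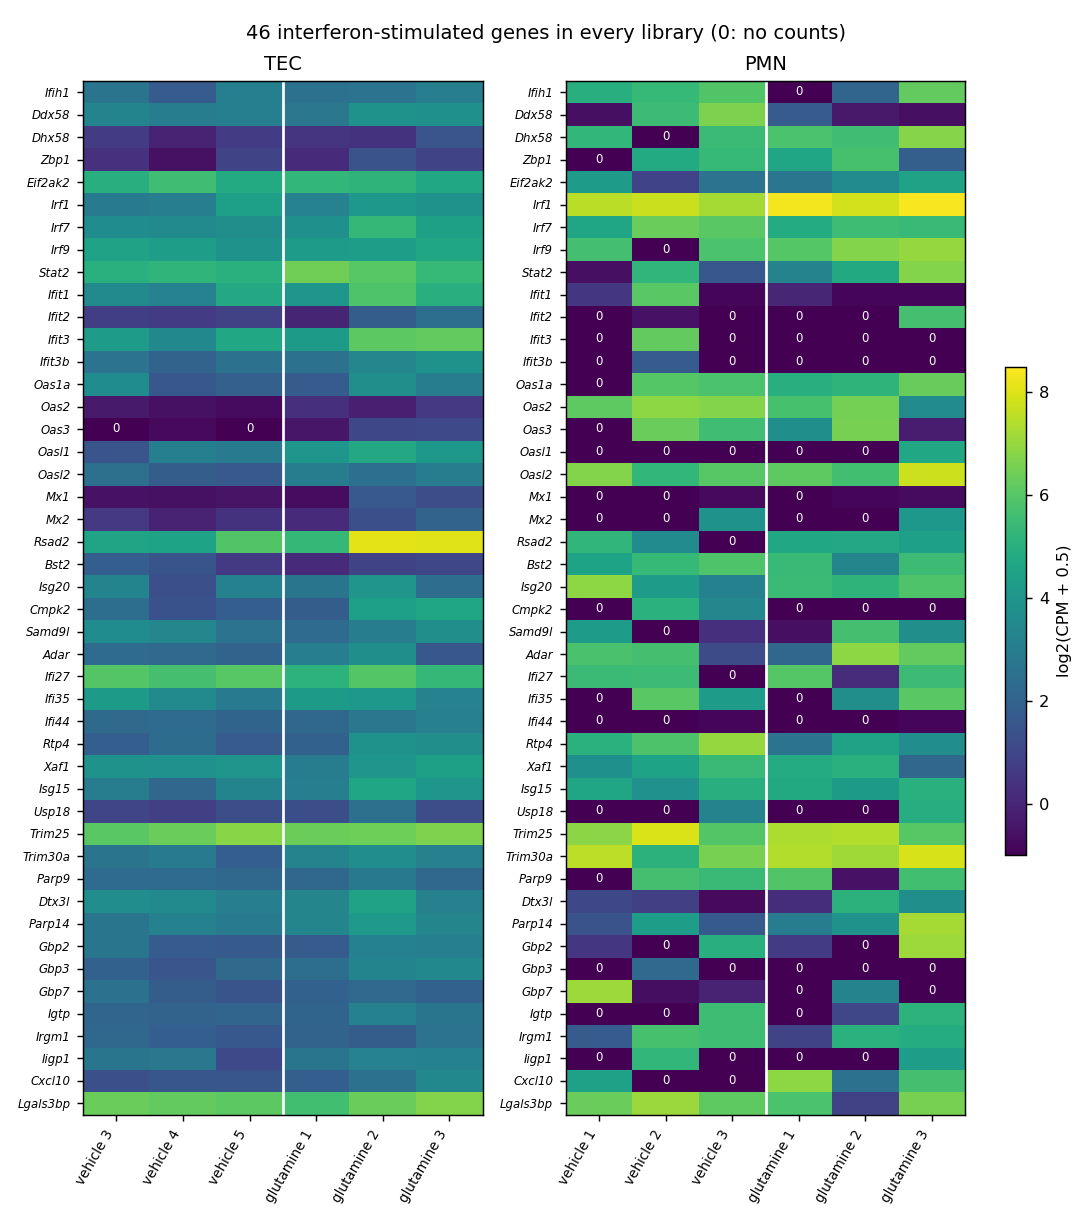
Levels of the 46 interferon-stimulated genes as log2(CPM + 0.5) in each TEC library (left) and each PMN library (right), with a 0 where a library had no counts. In TECs 0 counts occur only for Oas3, while between 5 and 17 members are at 0 in each PMN library.

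Irf1 ranked first among the 46 members in PMN by CPM per kilobase in both treatments. It had 181, 212 and 148 CPM in vehicle replicates 1, 2 and 3 and 321, 233 and 339 CPM in glutamine replicates 1, 2 and 3, a log2 fold change of 0.72 (SE 0.32, unadjusted p = 0.0565, adjusted p = 1 by edgeR). All glutamine libraries lay above all vehicle libraries, and the log2 fold change stayed between 0.59 and 0.85 without any 1 library. Rtp4 had 33.0, 57.2 and 128 CPM with vehicle and 5.69, 21.6 and 12.1 CPM with glutamine, a log2 fold change of -2.47 (SE 1.13, unadjusted p = 0.0658 by edgeR), which was the opposite direction to that in TECs. The difference between the cell types was not tested. Dhx58 and Irf9 were at 0 in vehicle replicate 2, and their log2 fold changes were 1.36 (SE 1.95) and 1.49 (SE 1.87).

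Other members with high levels in PMN overlapped between the groups. Trim30a, a ligase that dampens innate signalling, had 186, 33.7 and 93.7 CPM with vehicle and 171, 142 and 243 CPM with glutamine. Oasl2 had 106, 39.1 and 64.3 CPM with vehicle and 71.0, 49.3 and 217 CPM with glutamine, with glutamine replicate 3 far above the others. Lgals3bp had 79.3, 135 and 70.0 CPM with vehicle and 55.7, 1.32 and 92.4 CPM with glutamine. The RNA-editing enzyme Adar ranged from 1.76 to 54.4 CPM with vehicle and from 3.90 to 117 CPM with glutamine. Gbp2 was at 139 CPM in glutamine replicate 3 and at 30.9 CPM in vehicle replicate 3, with less than 1.1 CPM in the other 4 libraries, so that its log2 fold change of 2.13 (SE 3.26) turned to -4.35 without glutamine replicate 3. Glutamine replicate 3 held the highest level of 12 of the 33 members (36.4%, against 18.0% of all genes), and it also had the highest sum of macrophage and dendritic cell markers (26470 CPM, against 11937 to 23585 CPM elsewhere) and the lowest of neutrophil markers (22035 CPM, against 30147 to 71313 CPM). The part of these markers in the members' levels was not tested.

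The tested members with the largest log2 fold changes in TECs, Rsad2, Cmpk2, Oasl1 and Ifit3, were low or patchy in PMN, and Oasl1 and Ifit3 had counts in 1 library only, as given above. Rsad2 had 37.8, 11.4 and 0 CPM with vehicle and 24.5, 26.0 and 19.9 CPM with glutamine, a log2 fold change of 0.52 (SE 2.19). Cmpk2 was at 0, 33.0 and 9.99 CPM with vehicle and at 0 in all glutamine libraries, and it did not pass the filter. Isg15 had 24.3, 13.5 and 31.4 CPM with vehicle and 26.6, 17.7 and 32.4 CPM with glutamine, groups that lay on top of each other.

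Among the pathway genes in PMN, 24 of 49 were tested, 13 higher and 11 lower, beside 50% higher over all genes. Of these, 1 had an unadjusted p-value below 0.05 in edgeR's test, near the 3.33% of all genes. This was Socs3, an inhibitor of cytokine signalling through JAK kinases, which had 599, 1030 and 819 CPM with vehicle and 1207, 1395 and 1579 CPM with glutamine. The groups did not overlap, with a log2 fold change of 0.77 (SE 0.26, unadjusted p = 0.0225, adjusted p = 1 by edgeR). The receptor genes were well covered, with Ifngr1 between 647 and 895 CPM in all libraries (log2 fold change -0.05, SE 0.23), Ifnar2 at 0.64 (SE 0.46), Ifnar1 at 0.45 (SE 0.86), Ifngr2 at 0.05 (SE 0.71) and Il10rb at 1.05 (SE 0.50, unadjusted p = 0.0743 by edgeR). Ifnlr1 was detected only in glutamine replicates 1 and 3, at 48.1 and 61.1 CPM. Of the 21 ligands, Ifnb1 alone had any counts, at 0.502 CPM in glutamine replicate 3.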

How the data were processed

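RNA was reverse transcribed from the polyA tail and sequenced as single reads of 50 bases, per the labels. The submitters' processing notes name FastQC, MultiQC, Trim Galore 0.6.4, Salmon 1.0.0, DESeq2 and the build mm10. The transcript annotation and the use of strand are not given in the sources used here. Each of the tables (TEC and PMN) deposited by the authors gives unnormalized estimated counts by gene. In the deposited PMN table a spreadsheet had added points to 3.20% of cells and turned 0.391% into dates. It was decoded with the last point as the decimal point and handled as estimated counts, although plain counts had been planned. It holds 2 columns per library, of unstated meaning, with correlations of at least 0.9978, and their mean was used as 1 replicate. No column of values was left unused (0 in each table).

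Counts were rounded and tested within each cell type in edgeR 4.0.16 (R 4.3.3) by the quasi-likelihood test, with TMM scaling, its default expression filter, robust estimates of the spread and Benjamini-Hochberg adjustment over all genes tested. CPM use the TMM factors, and deviations per library use log2(CPM + 0.5). Each standard error follows from the log2 fold change and its F statistic. Alternatives were DESeq2 1.42.0, limma-voom (limma 3.58.1), other scalings and filters, the first PMN column alone and fits without each library. The fits were tested on simulated data. Gene symbols were looked up in GENCODE M21 (GRCm38) for positions and lengths. TEC replicate numbers are those of the labels, and PMN numbers follow sample order.

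The 46 members, the pathway and marker lists and the tests were chosen with earlier results of these data known. Named by rule were members with an adjusted or unadjusted p-value below 0.05 (at most 12 per cell type), the member with the highest mean CPM of each role and cell type, the receptors and pathway genes with an unadjusted p-value below 0.05. A pathway gene that the rule also named is not reported here. Other members named were chosen after their values were seen.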

Additional observations from a re-analysis of the deposited data

How the results depend on the processing

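No paired analysis was possible because 3 is the sole number that both TEC groups hold and the PMN numbers follow sample order. In TECs 0 members were past the threshold in edgeR's test, and 12 had an unadjusted p-value below 0.05. Members past it numbered 4 of 46 without the expression filter (Cmpk2, Ifit1, Ifit3 and Oasl1) and 3 of 37 with DESeq2 (8.11%). Over all genes it was 0 of 14734 in edgeR's test, with 1901 (12.9%) at an unadjusted p-value below 0.05. It was 246 of 12738 (1.93%) with DESeq2 and 398 without the filter, where the share of all genes was not computed. It ranged from 0 to 38 across the fits without 1 library, with 38 without glutamine replicate 2 and 4 without vehicle replicate 5. The cause was not tested. The members' median log2 fold change in TECs lay between 0.43 and 0.86 in every alternative run. In PMN 0 members passed in any alternative, while 309 genes passed with DESeq2 against 0 in edgeR's test (337 unadjusted). The PMN median was 0.83 with limma-voom, -0.13 over the members with 10 or more counts in each library and -0.24 to 0.40 across the fits without 1 library. In a window of 100 bases before to 50 after the start, an ISRE was found in 37.1% of members against 1.69% of genes.

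Directions turned across the fits without 1 library for genes with small or uneven differences. This was so for 14 of the 43 members tested in TECs and 16 of the 33 in PMN, with no share over all genes computed. They include Oas1a in TECs (log2 fold change from -0.17 to 1.37) and Rsad2 in PMN (from -0.078 to 2.02). In TECs the log2 fold changes ranged from -0.12 to 0.27 for Trim25, -0.20 to 0.33 for Lgals3bp, -0.24 to 0.18 for Eif2ak2, -0.033 to 0.21 for Ifnar1, -0.33 to 0.099 for Ifnar2 and -1.23 to 0.073 for Ifnlr1. In PMN they ranged from -4.35 to 6.67 for Gbp2, -0.22 to 1.07 for Oasl2, -0.20 to 1.30 for Ifnar1, -0.19 to 0.031 for Ifngr1 and -0.42 to 0.93 for Ifngr2. PMN Ifngr2 was also at -0.024 with RLE scaling, -0.0079 without the filter, -0.011 with the stricter filter and -0.030 with DESeq2. A fit without robust estimates of the spread, chosen after seeing the data, gave the same counts of members. With 3 libraries per group, differences smaller than the spread between libraries could not be detected.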
